A study of Zea mays with 6 samples.

Results

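The 150 genes described here were those whose transcript level varied least across 6 maize leaf libraries. They were chosen from 39628 gene models by their measured values. The count of each gene was divided by the sum of its library and scaled to a library sum of 1000000 (the unit CPM), 4691 genes reached 20 CPM in all 6 libraries, and the 150 of these with the smallest SD over mean of CPM were taken. This SD over mean, in percent, is called the coefficient of variation below. Because the ranking used all 6 libraries, the small spread of the 150 genes and their small difference between the genotypes are consequences of the choice and are given as descriptions.

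The material was leaf of field-grown maize (Zea mays) at the stage with 6 leaves, with 3 libraries of the wild type inbred line Q319 and 3 libraries of a transgenic line named L100. The design text gives the leaf as the sixth. The labels name neither the transgene, its promoter nor how many insertion events L100 stands for, and do not say whether libraries of 1 genotype were made from different plants, so the spread between them may be technical. Depth ranged from 8320337 to 9922468 counts over the wild type libraries and from 6458248 to 7536583 over those of L100. At the minimum of 20 CPM a gene therefore had between 129 and 198 counts in a library.

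Transcripts of C4 leaf cells were abundant in every library. The mesophyll enzymes pep1 (phosphoenolpyruvate carboxylase) and pdk1 (pyruvate phosphate dikinase) lay at 17023 to 35838 and 32226 to 47976 CPM, and the bundle sheath enzyme me3 (NADP-malic enzyme) at 8234 to 11776 CPM. The 5 endosperm and 2 root marker genes that matched a name summed to at most 27.7 and 8.16 CPM, and zp1, zp27, o2 and rtcs1 were at 0. The 4 cell division markers summed to 11.9 to 14.1 CPM in wild type and 2.51 to 3.32 CPM in L100. Most of the wild type sum was his2a1, at 8.06 to 12.2 CPM, beside 1.12 to 1.99 CPM in L100. The part of these markers in the results below was not tested. Wild type replicate 3 stood apart from the other libraries. Its light-harvesting transcript lhcb7 was at 898 CPM against 6216 to 7693 CPM in the other 5, and its level of a gene differed from the gene's mean in the other 5 libraries by a median of 0.48 on the log2 scale over genes at 20 CPM in those 5, against 0.22 to 0.32 for the other libraries treated in the same way. Summaries of the 150 genes are therefore also given without it.

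A reference gene is a transcript whose level is taken as constant, so that the level of other genes can be expressed relative to it, most often in quantitative PCR. Genes of basic cell functions, such as actin, tubulin, ubiquitin, elongation factor 1-alpha and cytosolic glyceraldehyde-3-phosphate dehydrogenase, are customarily used. In a leaf, a few photosynthesis transcripts take up a large part of the RNA, so a level given as CPM also depends on how much those few take.

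The 150 genes had a median coefficient of variation of 7.99%, with a range of 3.36% to 9.37%. The median over all 4691 genes at the minimum was 24.3%. Without wild type replicate 3 the medians were 7.57% and 20.1%. In the median gene of the 150 the highest library exceeded the lowest by a factor of 1.24, and in the widest by 1.33, where the median of all genes at the minimum was 1.92. The spread that counting alone would give at these depths had a median of 4.96% over the 150 genes. Of the 150, 16 (10.7%) varied no more than that. None of the other 4541 genes at the minimum did, as the choice fixes, since each varied by at least 9.38%. For those 16 genes the depth of these libraries did not resolve any variation between leaves.

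Most of the 150 genes were of low to moderate level. Their median mean level was 51.8 CPM (quartiles 33.7 and 92.0), against 61.3 CPM for all genes at the minimum. Of the 150, 71 lay under 50 CPM, 66 between 50 and 200 CPM and 13 at 200 CPM or more, among them 3 above 1000 CPM. They came from every level, making up 3.93% of the genes between 20 and 50 CPM and 2.83% of those at 1000 CPM or more, beside 3.20% of all genes at the minimum. Per kilobase of coding length, which allows levels of different genes to be compared, their median was 36.8 CPM per kb (range 8.30 to 5114), against 47.2 for all genes at the minimum. The median coding length was 1542 bases in the 150 genes and 1392 bases in all genes at the minimum.

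**Figure D1:**
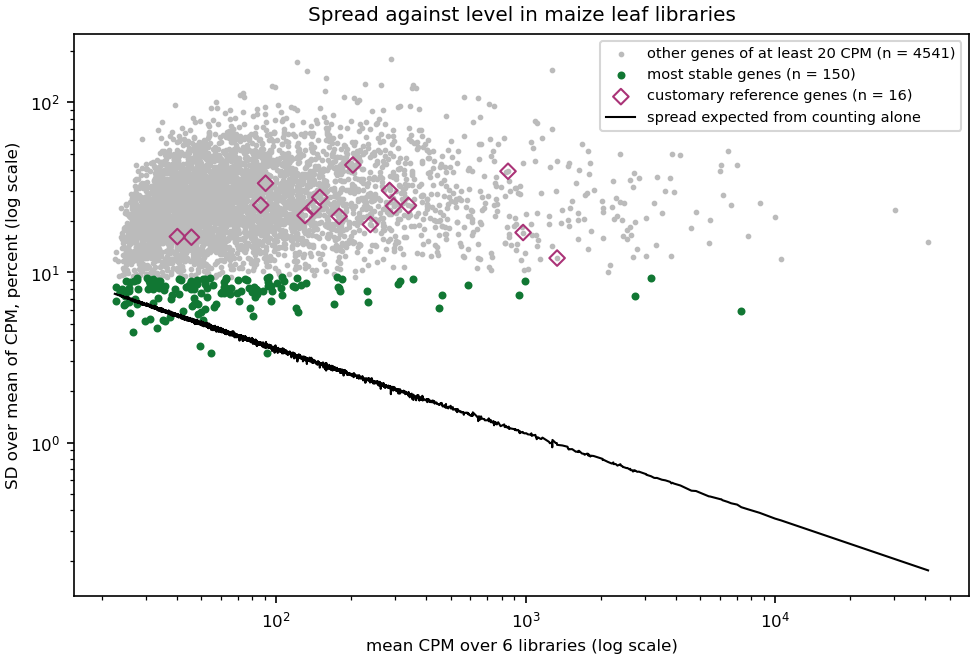
Coefficient of variation of CPM over the 6 libraries (percent, log scale) against mean CPM (log scale), with 1 point per gene that reached 20 CPM in every library. The 150 most stable genes (green) form the lower edge at every level, the 16 customary reference genes (open diamonds) lie above it, and the line is the spread expected from counting alone.

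The gene with the smallest spread, GRMZM2G005652, stood at 86.6, 94.6 and 93.1 CPM in the wild type libraries, in the order of their numbers, and at 93.1, 94.5 and 90.3 CPM in those of L100, and other genes follow in the same order. Its coefficient of variation was 3.36%, under the 3.71% that counting alone would give. GRMZM5G831993 stood at 55.4, 55.0 and 57.5 CPM (wild type) and at 52.7, 56.0 and 53.0 CPM (L100). These values overlapped between the genotypes, with a coefficient of variation of 3.37%. GRMZM2G329300 stood at 49.7, 52.5 and 49.4 CPM (wild type) and at 47.6, 47.5 and 49.1 CPM (L100), so that each wild type value lay above each L100 value by a small margin. The next 7 by rank were GRMZM2G106903, GRMZM2G129700, GRMZM2G108739, GRMZM2G152688, Sal1, GRMZM2G104254 and GRMZM2G314898, with coefficients of variation of 4.48% to 5.34%. All of these 10 but GRMZM2G005652 had a mean level of 54.9 CPM or less.

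The limit of the list fell in a dense part of the ranking. The last 5 genes inside it were GRMZM2G164956, AC234203.1_FG004, cys1, NDL1 and GRMZM2G105019, at 9.32% to 9.37%. The first 5 outside were GRMZM2G469111, GRMZM5G864266, GRMZM2G144547, GRMZM2G307992 and GRMZM2G073668, at 9.38% to 9.42%.

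Functions could be given for a small part of the genes. Of the 150 identifiers, 115 (76.7%) matched a single RefSeq gene record, close to the 76.6% of all genes at the minimum. An informative symbol was attached to 17 of the 150 (11.3%) and to 14.4% of all genes at the minimum. A further gene without a symbol is described with its clone synonym csu309(atpc). What follows covers those 18 genes, with a role given for most of them. The other 132 had at most further identifiers, such as locus numbers or clone names, and are given by gene identifier. Relatives named beside the 18 genes lay outside the 150. Their larger coefficient of variation on library sums is therefore fixed by the choice.

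The most abundant of the 150 was gpa1 (also GAPA, GRMZM2G337113), the plastid glyceraldehyde-3-phosphate dehydrogenase subunit of the Calvin cycle. It stood at 7155, 7509 and 6831 CPM (wild type) and at 7856, 7657 and 6842 CPM (L100), with overlapping groups and a coefficient of variation of 5.90%. At 5114 CPM per kb of coding length it stood far above the median of the 150 genes. The transcript of gpb1, listed for the partner subunit of the same plastid enzyme, ranged from 5978 to 11837 CPM with a coefficient of variation of 25.8%. The cytosolic, glycolytic enzymes GAPC and GAPC2 were at 12.2% and 17.2%, also outside the 150.

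The other abundant members had less annotation. GRMZM2G048907, with the synonym csu309(atpc), stood at 2523, 2856 and 2707 CPM (wild type) and at 2916, 2951 and 2490.3 CPM (L100). Its groups overlapped, at a coefficient of variation of 7.29%. GRMZM2G089136 stood at 3027, 3005 and 2896 CPM (wild type) and at 3304, 3711 and 3108 CPM (L100), all L100 values being the higher. GRMZM5G885392 likewise stood at 905, 840 and 921 CPM (wild type), below 1014, 1022 and 931 CPM (L100), while GRMZM2G397247 had overlapping groups at means of 953 ± 63.4 CPM (SD, n = 3) and 1032 ± 104 CPM (SD, n = 3).

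Signalling and regulatory genes were present at low levels. MKK3 (GRMZM2G004468), a mitogen-activated protein kinase kinase, stood at 27.1, 28.7 and 26.5 CPM (wild type) and at 30.1, 25.1 and 25.7 CPM (L100). Its coefficient of variation was 6.96%, and that of mek1, another kinase kinase, was 32.3%. On library sizes scaled with TMM, a method described further on, MKK3 stood at 13.7%. The median of these 2 genes was 16.9% on that scale. SnRK2.8 (GRMZM2G138861), a member of the SNF1-related kinases that act in abscisic acid and osmotic stress signalling, stood at 37.5, 33.1 and 35.2 CPM (wild type) and at 30.3, 31.8 and 36.1 CPM (L100). Its coefficient of variation was 8.10%, and those of its relatives SnRK2.1 and SnRK2.5, outside the 150, were 35.8% and 35.4%. EREB14 (GRMZM2G018398), an AP2/ERF type transcription factor, stood at 24.8, 24.8 and 26.2 CPM (wild type) and at 21.0, 23.0 and 23.4 CPM (L100). It was the only one of the 37 transcription factors in the functional list that entered the 150, and its groups did not overlap.

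Among chromatin genes, mbd106 (GRMZM2G022365), of the methyl-CpG-binding domain family, stood at 69.7, 66.5 and 72.1 CPM (wild type) and at 62.6, 59.7 and 61.3 CPM (L100). The 3 wild type values all lay above the 3 L100 values, and the coefficient of variation was 7.50%. Family members mbd115, mbd105, mbd111 and mbd113 stood at 11.9%, 13.4%, 23.2% and 38.8%. HMGe (also nfd102, GRMZM2G145968), an HMG-box DNA-binding protein, stood at 53.3, 53.4 and 56.8 CPM (wild type) and at 48.8, 43.5 and 54.0 CPM (L100). It stood at 9.16%, where the HMG-box genes nfd110 and MNB1B stood at 20.4% and 45.2%. Without wild type replicate 3 this order turned for nfd110, at 7.29% against 8.82% for HMGe.

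Of the enzymes of redox metabolism, cat1 (GRMZM2G088212), a catalase that breaks down hydrogen peroxide, stood at 92.9, 85.9 and 79.6 CPM (wild type) and at 84.3, 74.7 and 86.9 CPM (L100). The groups overlapped and the coefficient of variation was 7.48%. The transcript of cat2, another catalase, ranged from 259 to 766 CPM at 43.4%. NFU3 (GRMZM2G100976), which in Arabidopsis is a plastid scaffold for iron-sulfur clusters, stood at 91.8, 113 and 105 CPM (wild type) and at 104, 113 and 104 CPM (L100).

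In protein synthesis, tif5A (GRMZM2G144030), for translation factor eIF5A, stood at 307, 338 and 308 CPM (wild type) and at 269, 349 and 314 CPM (L100). Its coefficient of variation was 8.95%, and that of the second eIF5A gene, GRMZM2G113696, was 20.7%. On library sizes scaled with TMM, a method described further on, the order was the reverse, at 17.9% for tif5A and 13.3% for GRMZM2G113696, and without wild type replicate 3 the values on library sums were 9.90% and 10.2%. Reads that near-identical copies share may have been split between such paralogs by the authors' counting, so single-gene values within these families carry that uncertainty.

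For membranes and the cytoskeleton, Sal1 (GRMZM2G117935), known in maize for its part in endosomal sorting and in limiting the aleurone to a single layer, stood at 53.0, 51.7 and 52.7 CPM (wild type) and at 52.3, 49.8 and 46.0 CPM (L100). It was the named gene with the smallest spread, at 5.23%. VAP27-2 (GRMZM2G053273), a protein of contact sites between endoplasmic reticulum and plasma membrane, stood at 88.4, 92.1 and 76.5 CPM (wild type) and at 95.4, 92.8 and 85.0 CPM (L100). LIM5 (GRMZM2G099328), a LIM domain protein, stood at 65.3, 59.9 and 69.0 CPM (wild type) and at 60.6, 60.9 and 55.6 CPM (L100). Both pairs of groups overlapped. The remaining named genes were dba2, FBL2, kik1, cys1 and NDL1, at mean levels between 31.2 and 230 CPM, with overlapping groups and coefficients of variation of 7.54% to 9.36%.

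**Figure D2:**
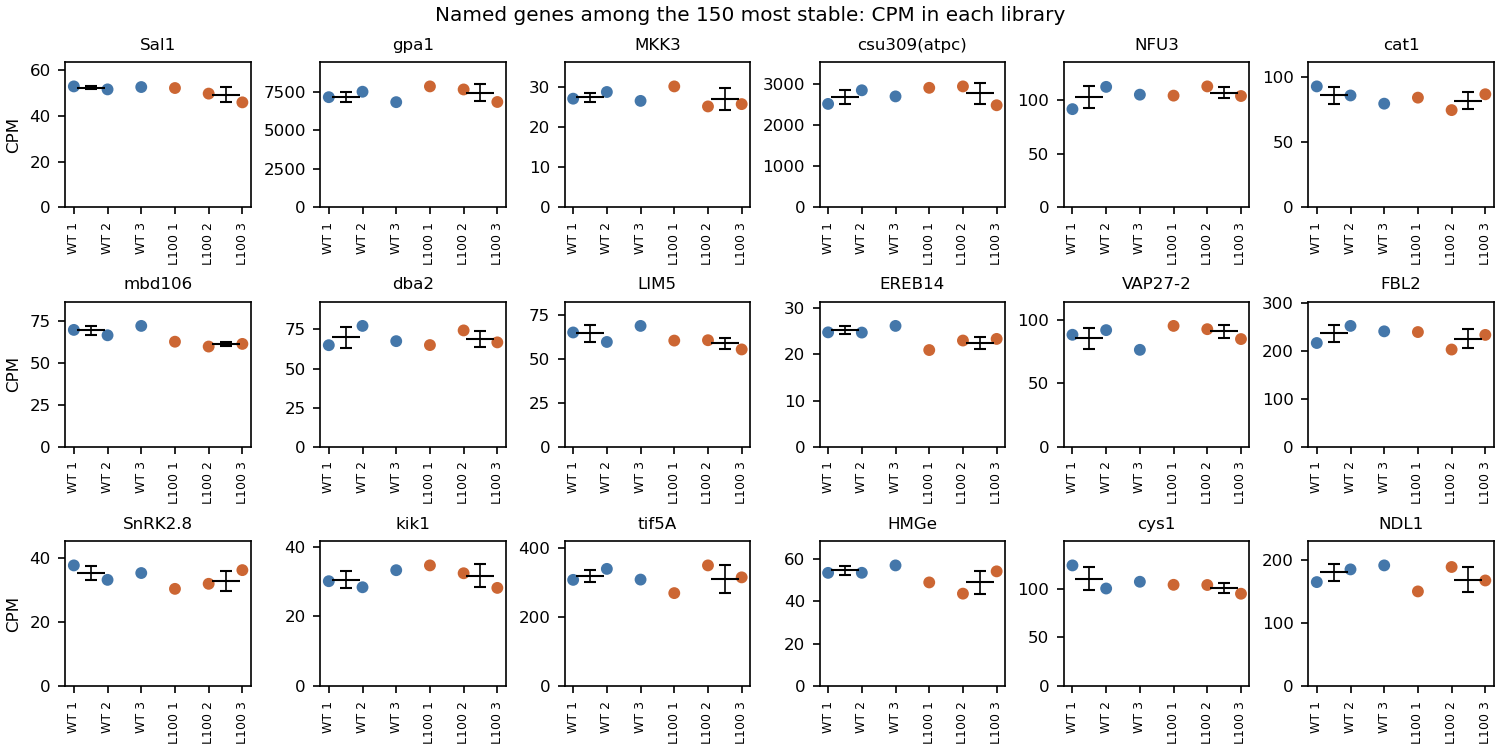
CPM of the 17 genes with a symbol and of csu309(atpc) in each library (blue, wild type replicates 1 to 3, and orange, L100 replicates 1 to 3). Each panel starts at 0, with bars for the group mean and SD (n = 3). Within each panel all 6 libraries stay within a factor of 1.33 of each other, and only mbd106 and EREB14 have groups that do not overlap.

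Each functional list held at most 2 of the 150 genes. Of listed genes at the minimum level, the 150 held 2 of 25 protein kinases and phosphatases, 2 of 28 chromatin genes, 2 of 15 genes of vesicles and membranes, 1 of 33 ribosome and translation genes, 1 of 34 photosynthesis genes, 1 of 21 antioxidant enzymes and 1 of 18 iron-sulfur and mitochondrial genes. None of 16 splicing and RNA-binding genes, 11 chaperones and 9 ubiquitin and SUMO genes was among them. The median coefficient of variation lay between 19.7% (splicing) and 27.1% (antioxidant enzymes) in all of these lists, beside 24.3% for all genes at the minimum. With so few named genes, these counts describe the lists and no more.

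On library sums, none of the customary reference genes was among the 150, while on TMM values 1 of them, Cullin-4, was among the 150 most stable genes. The list matched 34 genes by name, of which 16 reached 20 CPM in every library, and no tubulin gene did. The 150 were 3.20% of all genes at the minimum, so a count of none or 1 among 16 is no result about these genes. The 16 had a median coefficient of variation of 24.5%, close to the 24.3% of all genes at the minimum, with a range of 12.2% to 42.8%. The most stable was GAPC (GRMZM2G046804), at rank 373 of 4691, with 1285, 1220.4 and 1598 CPM (wild type) and 1401, 1373 and 1133 CPM (L100). Cullin-4 and ubc7, a scaffold of ubiquitin ligases and a ubiquitin-conjugating enzyme, followed at ranks 895 and 925. The translation factors eIF-4A and EF1A stood at ranks 1391 and 2410, and the ubiquitin gene MUB3 at rank 3871.

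The actin gene GRMZM2G126190 was last of the 16, at rank 4056. It stood at 220.4, 249 and 34.9 CPM (wild type) and at 247, 274 and 192 CPM (L100). Wild type replicate 3 was low and the other 5 libraries lay between 192 and 274 CPM. A second actin, Actin-7 (GRMZM2G067985), was instead highest in wild type replicate 3, at 250 CPM against 149 to 192 CPM elsewhere. Without that library the coefficients of variation of these 2 genes were 13.2% and 10.7%, that of GAPC was 8.58%, and the median of the 16 was 21.5%.

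**Figure D3:**
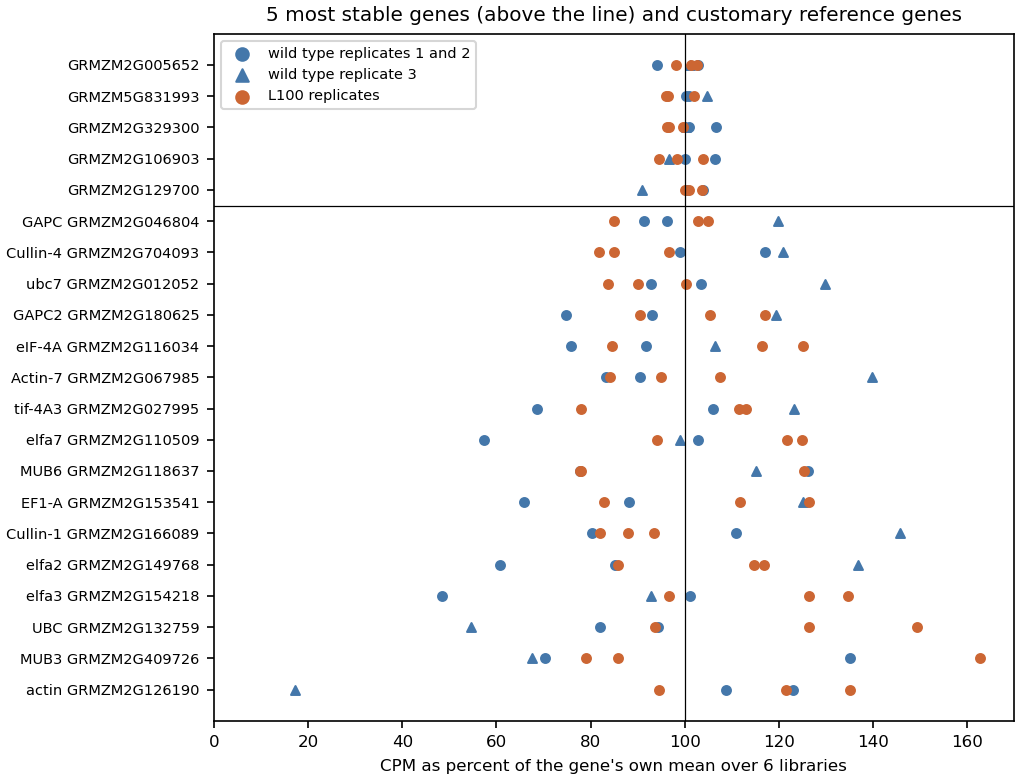
CPM in each library as percent of the gene's own mean over the 6 libraries, for the 5 most stable genes (above the line) and the 16 customary reference genes at the minimum level. Triangles mark wild type replicate 3, which is the lowest point for the actin gene GRMZM2G126190 and the highest for Actin-7, GAPC and ubc7, while the 5 stable genes all stay close to 100%.

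Between the genotypes, the 150 genes differed little on the CPM scale that chose them. The median difference of L100 minus wild type in mean log2 CPM was -0.05, with a range of -0.22 to 0.18, and 47 genes had the higher mean in L100 and 103 in wild type, whereas on TMM values all 150 had the higher mean in L100. In a fit of edgeR's quasi-likelihood model to all genes, no member of the 150 had an adjusted p under 0.05, none had an unadjusted p under 0.05, and DESeq2 and limma-voom called none. The same test called 0.834% of all 18702 genes tested and 0.149% of the 4691 genes at the minimum. The rule selects for a small difference, so nothing is read from this count.

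The groups did not overlap in 24 of the 150 genes (16.0%), against 16.1% of all genes at the minimum and 19.2% of all tested genes. Wild type was the higher in 19 of the 24 and L100 in 5. A share this near to that of all genes is no result about the 150. On TMM values only these 5 of the 24 still had groups that did not overlap. Over all 150, the groups did not overlap on TMM values in 25 (16.7%), all higher in L100. The share of all genes at the minimum was 12.2% on that scale. Without wild type replicate 3 the TMM shares were 16.7% and 24.7%. All 150 were higher in L100 on TMM values, so nothing is read from these shares. On library sums without wild type replicate 3 the counts were 36 of the 150 (24.0%) and 26.5% of all genes at the minimum. The largest difference among the 24 on library sums was in GRMZM2G082640, with 30.7, 28.5 and 30.0 CPM (wild type) and 24.8, 26.9 and 24.9 CPM (L100), a mean 14.0% lower in L100. In GRMZM2G317652 the wild type libraries were at 38.7, 41.1 and 40.5 CPM and the L100 values 35.7, 35.3 and 35.6 CPM, where the spread within L100 was 0.565% and counting alone would give 5.77% over the 6 libraries. In the other direction, GRMZM2G173747 stood at 22.5, 21.8 and 23.2 CPM (wild type) and at 24.8, 24.7 and 27.1 CPM (L100), a mean 13.5% higher in L100. The values of GRMZM2G082640 and GRMZM2G317652 overlapped between genotypes on TMM, and those of GRMZM2G173747 did not.

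How stable these genes were depended on what each library was scaled to. The 20 most abundant genes took 15.7% to 19.4% of the counts of a wild type library, least in replicate 3, and 19.1% to 21.4% of those of an L100 library. The trimmed mean of M values (TMM), which sets the bulk of genes equal instead of the library sum, gave factors of 1.11, 0.944 and 1.21 for wild type and 0.951, 0.862 and 0.966 for L100. Factors in the authors' scaled columns were close to these, at 1.12, 0.937 and 1.21 and at 0.950, 0.859 and 0.968. Taken from the 150 genes alone, the factors lay between 0.978 and 1.02, as the choice of genes fixes.

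On TMM-scaled values the median coefficient of variation of the 150 genes was 12.7% (range 3.53% to 20.4%), and 31 of the 150 stayed under 10%. All genes at the minimum had a median of 23.1% on that scale. Without wild type replicate 3 the medians were 10.9% and 19.9%. The median rank of the 150 was 551 of 4691, all 150 were among the first 2345, and the lowest placed was GRMZM2G089136 at rank 1889. The choice favours such places, since a gene near constant on library sums takes its TMM spread mostly from the factors. For gpa1, the coefficient of variation went from 5.90% to 16.4%. The 150 genes shifted together: their median deviation from their own mean on the log2 scale of TMM values was -0.14, 0.12 and -0.22 over the wild type libraries and 0.03, 0.20 and 0.03 over the L100 libraries. Wild type replicate 3 was the lowest library for 110 of the 150 genes, and L100 replicate 2 the highest for 92.

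A change of scaling moves the log2 difference of every gene by the same amount, which was 0.22 from library sums to TMM. Since the 150 genes were chosen for differences of at most 0.22 in size, all 150 had the higher mean in L100 on TMM values, with a median log2 difference of 0.17 where library sums gave -0.05. Without wild type replicate 3, 128 of the 150 were higher on TMM values, with a median of 0.094. The median over all genes at the minimum moved from -0.12 to 0.11 with the same change of scale. By arithmetic, the TMM factors alone set the size of this shift. The share of the most abundant genes differed between the libraries as well, and its part in these factors was not tested.

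**Figure D4:**
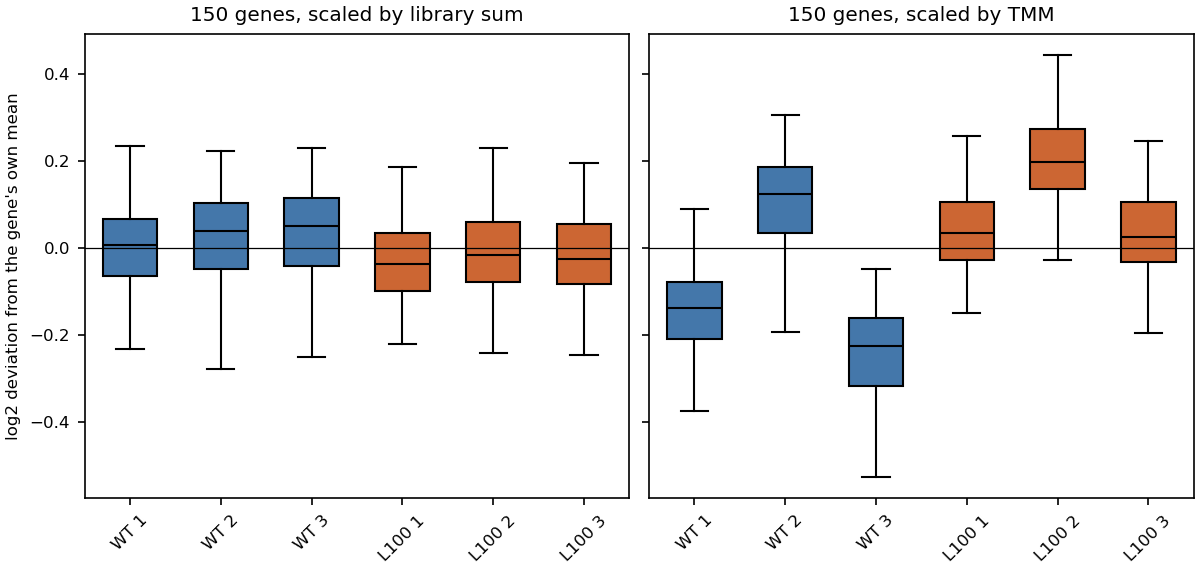
Deviation of each of the 150 genes from its own mean over the 6 libraries (log2), by library, on library sums (left) and on TMM-scaled library sizes (right). Boxes give the quartiles and median and whiskers the full range without outlying points; on the right the medians run from -0.22 in wild type replicate 3 to 0.20 in L100 replicate 2, while on the left all lie between -0.04 and 0.05.

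Few of the genes stayed among the 150 most stable under another scaling. The list shared 15 genes with the 150 most stable on TMM values, 11 on the relative log expression (RLE) scaling of DESeq2, 12 on the authors' scaled fragments and 14 on the deposited FPKM. Changes of the measure mattered less, with 142 genes kept when the SD of log2(CPM + 1) was ranked and 135 when the ratio of the highest to the lowest library was. A measure that no scaling can change is the SD of log2 ratios between a gene and each other gene, averaged over all genes at the minimum. By that measure 73 of the 150 genes remained among the 150 most stable, and all 150 were among the first 2345. It used the same 6 libraries, and a small spread of CPM favours a high place by it. These counts are therefore descriptions and no independent check.

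Single libraries also decided membership. With 1 library left out and the ranking repeated, 78, 106 and 55 of the 150 genes remained without wild type replicates 1, 2 and 3, and 106, 100 and 95 without L100 replicates 1, 2 and 3. The smallest overlap was without wild type replicate 3. Ranked within 1 genotype alone, the list kept 50 genes in wild type and 20 in L100.

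**Figure D5:**
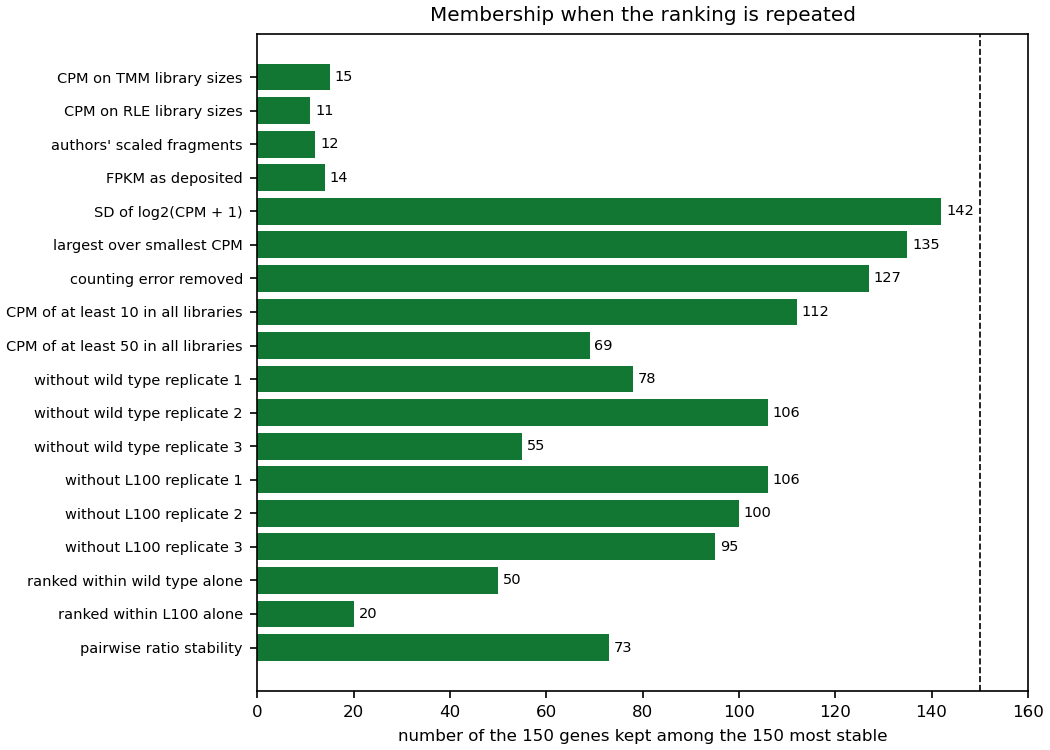
Number of the 150 genes that stayed among the 150 most stable when the ranking was repeated under another scaling, measure, minimum level or set of libraries, with the dashed line at 150. Changes of scaling kept 11 to 15 genes, leaving out a library kept 55 to 106, and changes of the measure on the same CPM values kept 127 to 142, apart from ratios between genes, which kept 73.

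The ranking was then measured in libraries it had not used. For each library in turn, the 150 most stable genes of the other 5 were compared in it with their mean in those 5. Of these genes, 68.7%, 80.7% and 44.0% were within 1.25-fold in wild type replicates 1, 2 and 3, against 49.6%, 55.8% and 34.2% of all genes at 20 CPM in the other 5. In L100 replicates 1, 2 and 3 the shares were 83.3%, 77.3% and 70.7%, against 68.6%, 56.5% and 63.9%. The genes chosen elsewhere were thus nearer to their level than genes at large in each of the 6 libraries, by 6.76 to 24.8 percentage points. In wild type replicate 3, 45 of the 150 chosen genes (30.0%) were more than 1.5-fold away, against 40.4% of all genes. In each of the other 5 libraries 2 to 16 of the chosen genes (1.33% to 10.7%) were, against 8.92% to 24.7% of all genes.

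The ranking was also carried from each genotype to the other. The 150 genes most stable over the 3 wild type libraries, with a median coefficient of variation of 3.72% there, had a median of 12.0% in L100, against 14.9% for all genes at the minimum. Of them, 93 (62.0%) varied less in L100 than the median gene. The 150 most stable over the L100 libraries, at 2.0% there, had a median of 23.4% in wild type, against 26.4%, with 86 (57.3%) under the median gene. Both selections held the same 8 genes, namely GRMZM2G005652, GRMZM2G329300, GRMZM2G152688, GRMZM2G015073, GRMZM2G017086, GRMZM2G317652, mbd106 and GRMZM2G002002. All of these but GRMZM2G002002, at rank 185, were among the 150 over 6 libraries. Each selection held 3.20% of the genes at the minimum. Unrelated selections of that size would share a few genes too, so nothing is read from the count of 8. In 7 of the 8, all but GRMZM2G005652, the genotypes did not overlap on library sums, where 16.1% of all genes at the minimum did not, and a small spread within each genotype favours this. On TMM values the genotypes overlapped in all 8.

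As candidates for leaf reference genes, those that kept their place under the most settings can be listed. These settings rank the same 6 libraries again, and the factors of TMM, RLE and the authors' scaling were close to each other. Keeping a place under them is a description and no independent check. Under TMM, RLE and the authors' scaling alike, 11 of the 150 remained: GRMZM2G151536, GRMZM2G457201, mbd106, LIM5, GRMZM2G003096, GRMZM2G060213, GRMZM2G141596, GRMZM2G056103, GRMZM2G110198, GRMZM2G324471 and HMGe. With each library left out in turn, 34 remained every time, among them the 10 with the smallest spread. Only GRMZM2G151536, mbd106 and LIM5 were in both sets.

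GRMZM2G151536 stood at 49.9, 49.3 and 54.5 CPM (wild type) and at 45.8, 48.2 and 50.8 CPM (L100). Its coefficient of variation was 5.86% on library sums and 8.87% on TMM values. That of LIM5 was 7.55% and 8.32%. For mbd106 it was 7.50% and 6.31%, and mbd106 also ranked first of 4691 by the ratio measure. Its genotype difference depended on the scale, with a wild type mean of 69.4 ± 2.81 CPM and an L100 mean of 61.2 ± 1.45 CPM (SD, n = 3) on library sums and 64.3 and 66.2 CPM on TMM values. GRMZM2G110198, at rank 130 on library sums with 9.04%, was the member with the smallest spread on TMM values, at 3.53% and rank 4.

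Among customary reference genes, Cullin-4 stood at 7.76% on the TMM scale, rank 82 and so inside the limit of 9.19% for the 150 most stable on that scale, where only 15 of the 150 genes chosen on library sums were. Its value on library sums was 16.1%. The median of the 16 customary genes was 26.9% on TMM values. The 11 genes that remained under all 3 scalings had mean levels between 24.7 and 178 CPM. These libraries cover 1 tissue, 1 stage and 1 wild type line with 1 transgenic line, so stability in other organs, stages or lines was not measured.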

How the data were processed

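RNA was extracted with Trizol and sequenced on Illumina libraries, per the labels' protocols. Bowtie 0.12.2 and the build B73 RefGen_v3 are named in the submitters' processing notes. The counting tool and strand setting are not given in the sources used here. Per the file headers, the authors deposited for each of 39628 gene models an estimated count of fragments, an FPKM value, a scaled fragment signal and a length. The deposited lengths were multiples of 3 for 88.7% of genes, hence "coding length". Estimated counts were not whole, within 0.001, for 0.300% of values and were rounded for the test.

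CPM was computed from the counts with no other scaling, as the ranking rule asks. The genotypes were compared with edgeR 4.0.16 in R 4.3.3 (quasi-likelihood test, TMM, filterByExpr, no block, Benjamini-Hochberg over 18702 genes, threshold 0.05), tested on simulated data, with DESeq2 1.42.0 and limma 3.58.1 as alternatives. The expected counting spread is the Poisson value at each gene's counts and covers counting error only. The authors' FPKM and scaled signal served as alternative scalings. No pair of libraries agreed within sampling noise.

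RefSeq records gave the names. Their assembly, Zm-B73-REFERENCE-NAM-5.0, differs from that of the files, so no coordinates are given. Of all identifiers, 18774 (47.4%) matched, and 519 with several records were left unnamed. The genes and lists were chosen with earlier results of these data known. The functional lists were also restated as symbols after the names had been seen. Genes named are the 10 with the smallest spread, the 5 most abundant, all with a symbol, 5 either side of the limit, the customary reference genes and, as chosen after their values were seen, those that kept their place or separated the genotypes.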

Additional observations from a re-analysis of the deposited data

How the results depend on the processing

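The count of genes called between L100 and wild type, 156 by edgeR, was 570 by DESeq2 and 5 with the replicate number as a block. It ranged from 0 to 222 when a library was left out, with 0 calls without L100 replicate 2 or 3 (1295 and 1282 genes at an unadjusted p under 0.05). None of these settings called any of the 150 stable genes, at an adjusted p under 0.05. Same-numbered libraries had deviations correlated at 0.507, 0.375 and 0.028 over genes, and libraries of unlike number at -0.442 to 0.097. Wild type replicate 3 correlated at -0.063 to 0.034 with the L100 libraries. Whether the numbers stand for pairs could therefore not be told, and the main fit used no block. Of the 150 genes, 15 were kept on TMM, 11 on RLE, 12 on the authors' scaled fragments, 14 on FPKM, 50 in wild type alone, 20 in L100 alone and 73 by ratios between genes, a measure chosen after seeing the data. With 50 CPM as the minimum, 69 were kept, which are all of the 150 that reach it. Leaving out a library kept 55 to 106. Their median log2 difference was 0.17 on TMM, 0.18 on RLE and 0.18 on the authors' scaled fragments, against -0.05 on library sums, where leaving out a library gave -0.05 to -0.03, and 0.094 on TMM without wild type replicate 3, added after seeing the data. Their median spread, 7.99%, was 12.7% on TMM, 7.57% without wild type replicate 3 and 10.9% with both. Their count with groups apart, 24, was then 25, 36 and 25. The median spread in L100 of genes ranked on wild type went from 12.0% to between 13.1% and 15.1% without 1 ranking library. The largest of these lay above the 14.9% of genes at large. In wild type, genes ranked on L100 went from 23.4% to 17.3% on TMM, and to between 20.6% and 24.3% when a ranking library was left out. The cause of these moves was not tested. Depth limits the comparison most for genes near 20 CPM, where counting alone gives a spread close to the limit of the list.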
